A study of Mus musculus with 2 samples.

Results

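The guanylate-binding proteins (Gbp genes) and the immunity-related GTPases (Igtp, Irgm1 and Iigp1) were followed across the cells of arthritic popliteal lymph nodes (PLNs), together with Ifng, the gene of interferon gamma. The members were taken by gene symbol. They were Gbp2, Gbp3, Gbp4, Gbp5, Gbp6, Gbp7, Igtp, Irgm1, Iigp1 and Ifng, and all 10 were found among the 32285 genes of the count tables. The first 9 are called the GTPases here, and their counts were also added up as a GTPase sum.

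Interferon gamma is secreted mainly by activated T cells and NK cells. It binds its receptor on neighbouring cells and acts through JAK kinases on genes with GAS elements, and through IRF1, which binds ISRE elements shared with the type I interferon pathway. The GTPases are among the best known genes it turns on in mouse cells. Their proteins assemble on the membranes of vacuoles that hold bacteria or parasites and break them open, and they are inducible in lymphocytes as well as in macrophages.

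Both cell suspensions came from PLNs of male C57BL/6-background mice of a TNF-Tg line, which carries a single copy of a TNF transgene and develops inflammatory-erosive arthritis. The Advanced library was made from mice over 8 months of age, and the Early library from mice of 5 to 6 months. Each pooled 6 PLNs of 3 mice into a single 10x Genomics 3′ library, after a sort of live nucleated cells (Hoechst+ Sytox Green-). No wild-type cells were sequenced in this way, so both groups carry the transgene, and age and stage of arthritis cannot be told apart. With 1 library per stage there was no replicate check and no test between stages. All intervals below are exact 95% intervals that cover counting error only, and all comparisons describe these libraries.

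The Advanced library held 8183 cells with a median of 7837 UMIs (unique molecular identifiers, each a counted RNA molecule), and the Early library held 8221 cells with a median of 6643 UMIs. Cells were gated on raw marker UMIs into B cells (6026 Advanced, 7634 Early), T cells (1079 Advanced, 154 Early), monocytes (207 Advanced, 120 Early) and dendritic cells (107 Advanced, 59 Early), with smaller classes beside them. T cells thus made up 13.2% of Advanced cells and 1.87% of Early cells. Genes that no gate used went with the names: Trbc2, a T cell receptor chain, was at 1421 Advanced and 1658 Early counts per 1e+06 UMIs (CPM) in T cells, against 37.0 and 4.47 CPM in B cells. Lyz2 was at 7197 Advanced and 8341 Early CPM in monocytes, against 263 and 229 CPM in dendritic cells. S100a8 and S100a9, neutrophil genes, were at 2514 and 3129 CPM in Advanced monocytes, against 93.4 and 117 CPM in Early monocytes; their part in the monocyte results was not tested. The libraries shared 19 barcodes, most of them B cells. Without these, the Advanced to Early ratio of the GTPase sum was 1.17 in B cells, 1.11 in T cells, 0.747 in monocytes and 0.947 in dendritic cells.

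The members lie on 5 chromosomes. On the mm10 (GRCm38) assembly, Gbp5 (chr3:142493978-142522344), Gbp7 (chr3:142530342-142550149), Gbp3 (chr3:142560026-142573209) and Gbp2 (chr3:142620602-142638008) stand in a row on the plus strand. Gbp4 (chr5:105115767-105139586) and Gbp6 (chr5:105270702-105293698) lie on the minus strand. Irgm1 (chr11:48861968-48871683, minus strand) and Igtp (chr11:58199556-58207591, plus strand) share a chromosome. Ifng lies at chr10:118441046-118445892, on the plus strand. In the last 500 bases of Gbp6, 65.5% of 90-base stretches also occur in Gbp10 or Gm43302, so Gbp6 counts are uncertain. This share was 8.22% for Gbp4, 0.45% for Gbp3 and 0 for the other members.

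The 6 GTPase promoters with the letters of an ISRE are shown because these letters are what most of the members share beyond their names. RefSeq (GRCm38.p6) gave a window of 250 bases before to 50 bases after the start site for 7 of the 10 members, not for Gbp4, Gbp6 and Iigp1. Both strands were searched for the ISRE letters, GAAA, any pair of bases, then GAAA again (TTTC, any pair, TTTC on the other strand), and for the GAS letters, TTC, any run of 3 bases, then GAA (the same on both strands). Each line gives 180 bases before to 20 bases after the start, 5′ to 3′ on the gene's own strand, and the capitals mark every match to either motif.
Gbp2, chr3:142620483-142620682, plus strand: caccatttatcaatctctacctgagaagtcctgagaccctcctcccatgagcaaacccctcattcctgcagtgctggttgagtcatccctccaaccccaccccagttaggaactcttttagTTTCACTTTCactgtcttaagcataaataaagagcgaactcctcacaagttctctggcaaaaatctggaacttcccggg
Gbp3, chr3:142559864-142560063, plus strand: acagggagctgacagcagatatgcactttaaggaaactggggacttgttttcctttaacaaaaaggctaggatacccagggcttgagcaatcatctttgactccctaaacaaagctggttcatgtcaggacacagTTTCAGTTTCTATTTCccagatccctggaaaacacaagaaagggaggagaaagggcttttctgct
Gbp5, chr3:142496754-142496953, plus strand: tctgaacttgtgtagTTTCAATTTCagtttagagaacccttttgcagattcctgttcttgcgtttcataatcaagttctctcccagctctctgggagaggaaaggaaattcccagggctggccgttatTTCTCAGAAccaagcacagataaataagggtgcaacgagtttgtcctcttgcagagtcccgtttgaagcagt
Gbp7, chr3:142530156-142530355, plus strand: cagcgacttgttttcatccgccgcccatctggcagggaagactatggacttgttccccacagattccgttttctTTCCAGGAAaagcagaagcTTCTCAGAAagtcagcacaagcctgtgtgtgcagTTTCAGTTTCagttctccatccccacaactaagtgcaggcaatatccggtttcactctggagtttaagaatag
Igtp, chr11:58199376-58199575, plus strand: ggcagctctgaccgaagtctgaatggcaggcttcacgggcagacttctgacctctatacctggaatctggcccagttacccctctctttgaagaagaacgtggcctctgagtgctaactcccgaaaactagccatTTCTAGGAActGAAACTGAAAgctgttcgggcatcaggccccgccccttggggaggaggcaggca
Irgm1, chr11:48871401-48871600, minus strand: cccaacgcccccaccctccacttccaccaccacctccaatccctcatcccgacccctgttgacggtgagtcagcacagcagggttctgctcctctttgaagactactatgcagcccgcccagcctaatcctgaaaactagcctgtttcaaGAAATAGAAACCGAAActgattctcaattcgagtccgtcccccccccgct

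The ISRE letters began 59 bases before the start in Gbp2, 165 in Gbp5, 53 in Gbp7 and 34 in Igtp. Gbp3 (45 and 39 bases) and Irgm1 (30 and 24 bases) each held an overlapping pair. These letters were in 6 of the 7 members with a window, against 3.43% of all 32817 RefSeq promoter windows of this length. The GAS letters were in 4 of the 7 members, against 8.29% of all windows: Gbp5 at 245 and 52 bases before the start, Gbp7 at 106 and 87, Igtp at 45, and Ifng at 249. Ifng held no ISRE letters. In Igtp the GAS began 11 bases before the ISRE, and the same spacing was found in its relatives Irgm2, Tgtp1 and Tgtp2. A further RefSeq start of Gbp3 held neither motif in its window. These matches describe the letters and were not tested for binding.

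In both libraries, T cells carried the GTPase sum at a higher level than B cells, and Treg stood highest among the subsets with at least 30 cells. In T cells it stood at 249 CPM (241–258; 3186 UMIs) in the Advanced library and at 224 CPM (205–245; 496 UMIs) in the Early library. In B cells it stood at 109 CPM (106–111; 5814 UMIs) in Advanced PLNs and at 92.6 CPM (90.1–95.1; 5406 UMIs) in Early PLNs. The ratio of T cells to B cells was 2.29 (2.20–2.40) in the Advanced library and 2.42 (2.20–2.65) in the Early library. Cells with at least 1 GTPase UMI made up 77.9% of Advanced and 78.6% of Early T cells, and 51.1% of Advanced and 43.2% of Early B cells. After every cell was thinned to 3000 UMIs these shares were 43.9% and 47.7% of T cells, and 25.3% and 22.1% of B cells.

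The order of monocytes and dendritic cells differed between the libraries. Monocytes were at 82.9 CPM (71.7–95.5; 194 UMIs) in Advanced PLNs, below B cells, with a ratio to B cells of 0.763 (0.658–0.881). In Early PLNs they were at 111 CPM (94.9–129; 171 UMIs), above B cells, with a ratio of 1.20 (1.02–1.39). Dendritic cells were at 112 CPM (97.9–127; 237 UMIs) in the Advanced library, within counting error of B cells (ratio 1.03, 0.899–1.17), and at 123 CPM (103–145; 136 UMIs) in the Early library, above B cells (ratio 1.33, 1.11–1.57). Monocytes and dendritic cells had overlapping intervals in the Early library but not in the Advanced library.

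**Figure D1:**
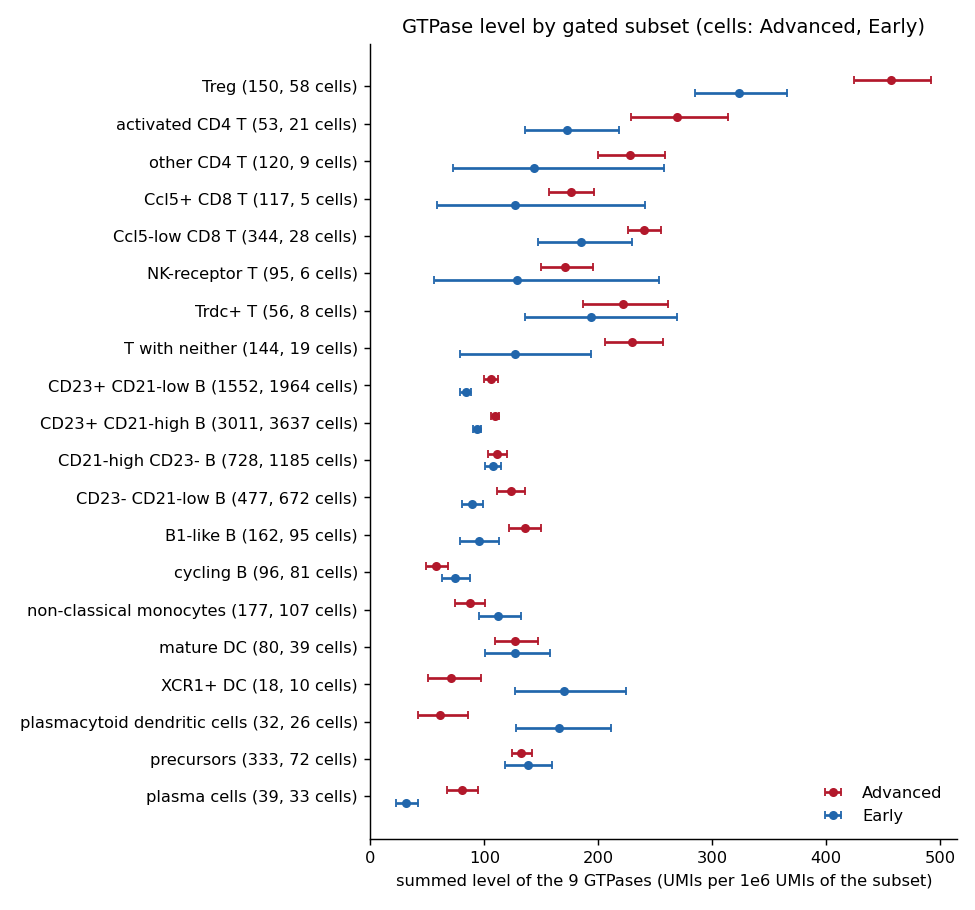
Summed level of the 9 GTPases (CPM) in gated subsets, with the Advanced library above the Early library in each pair. Small monocyte and dendritic subsets (Ccr2+ monocytes among them), NK cells and cells of no class are not drawn. Points are pooled levels and lines are exact 95% Poisson intervals for counting error. Treg stood at 457 CPM (Advanced) and 324 CPM (Early), and cycling B cells at 57.5 CPM and 74.4 CPM.

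Between stages the GTPase sum was a little higher in Advanced B cells (ratio 1.17, 1.13–1.22) and T cells (1.11, 1.01–1.23), lower in Advanced monocytes (0.748, 0.606–0.924), and within counting error in dendritic cells (0.909, 0.733–1.13). None of the 4 ratios reached 1.5-fold in either direction. The monocyte ratio was 0.822 (0.653–1.03) when the cell with the most GTPase UMIs was left out of each library. The T cell ratio fell on either side of 1 with the weighting of cells, as is given with the depth of T cells.

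For single genes, levels are ordered over the 4 main classes (T cells, B cells, monocytes and dendritic cells) unless another class is named. A difference between stages was counted as past the size rule when the gene was at 10 CPM or more in either library, the ratio was at least 1.5-fold and its interval left out 1. This rule reads counting error only and is no test between stages. In T cells, 9 GTPases were measured; 1 was higher in Advanced cells (Gbp4) and 2 were lower (Gbp3 and Gbp6). With TMM factors 5 were higher (Gbp2, Gbp4, Gbp5, Irgm1 and Iigp1) and 0 were lower, with 11.8% of all genes higher and 10.5% lower. Without that scaling, of all 7397 genes measured in T cells, 5.14% were higher and 22.5% were lower by the same rule, and the median ratio of all genes was 0.838, against 1.28 for the GTPases. In B cells, 6 GTPases were measured and 0 passed in either direction, against 1.12% higher and 0.0575% lower of 6952 genes. All 6 had ratios above 1, as did 69.9% of all genes, with a median of 1.16 against 1.04 for all genes. In monocytes, 6 were measured, 0 were higher and 1 was lower (Gbp7), against 5.62% higher and 2.67% lower of 7778 genes. The 6 ratios were all below 1, with a median of 0.687, while 53.6% of all genes were above 1, with a median of 1.02. Without the cell with the most GTPase UMIs in each library, 5 were measured, 0 were lower by the rule and 1 had a ratio above 1. In dendritic cells, 5 were measured, 0 were higher and 1 was lower (Iigp1), against 3.83% higher and 6.06% lower of 7787 genes.

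**Figure D2:**
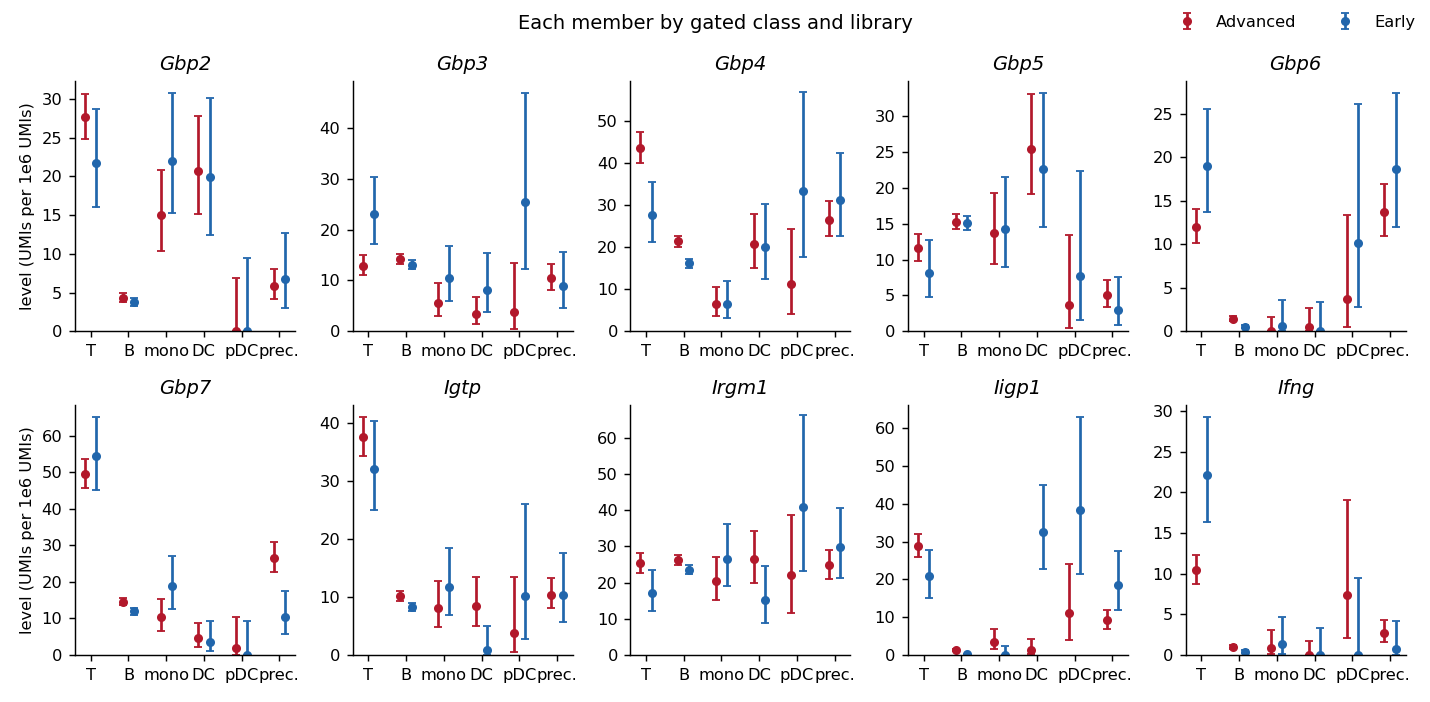
Level of each member (CPM) in T cells, B cells, monocytes (mono), dendritic cells (DC), plasmacytoid dendritic cells (pDC) and precursors (prec.), Advanced left of Early; points are pooled levels and lines are exact 95% Poisson intervals. Gbp2 in T cells was at 27.7 CPM (Advanced) and 21.7 CPM (Early), above 4.35 CPM and 3.80 CPM in B cells, and Irgm1 was close in both classes.

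Gbp2, a guanylate-binding protein recruited to parasite vacuoles, was a T cell and mature dendritic cell gene among the members. The T cell level was 27.7 CPM (24.9–30.7; 354 UMIs) in the Advanced library and 21.7 CPM (16.0–28.7; 48 UMIs) in the Early library, a ratio of 1.28 (0.943–1.76). The B cell level was 4.35 CPM Advanced and 3.80 CPM Early, so T cells stood 6.36-fold (5.38–7.54) above B cells in Advanced PLNs and 5.70-fold (4.08–7.82) in Early PLNs. Dendritic cells (20.7 CPM Advanced, 19.9 CPM Early) and monocytes (15.0 and 22.0 CPM) lay above B cells, and in the Early library they did not differ from T cells beyond counting error. All dendritic Gbp2 UMIs were in mature dendritic cells (30.9 CPM Advanced, 34.6 CPM Early), and XCR1+ and plasmacytoid dendritic cells had 0 in both libraries. Among B cells, B1-like cells stood 4.09-fold (2.75–5.99) above CD23+ CD21-high cells in the Advanced library and 2.20-fold (1.07–4.08) in the Early library. Activated CD4 T cells were at 46.0 CPM Advanced (27 UMIs) and 9.37 CPM Early, a ratio of 4.91 (1.71–19.3). The Early value rested on 4 UMIs in a subset of 21 cells. Treg were at 59.5 CPM Advanced and 30.4 CPM Early, but 38 of the 95 Advanced UMIs came from 1 cell, and without it Advanced Treg were at 35.9 CPM.

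Gbp3, a member of the same chromosome 3 cluster, had its highest level in Treg, while B cells held more of its UMIs (759 Advanced, 763 Early). Treg were at 47.0 CPM Advanced (75 UMIs) and 45.5 CPM Early (36 UMIs), a ratio of 1.03. Ccl5-low CD8 T cells were at 9.66 CPM Advanced and 9.15 CPM Early, so Treg stood 4.86-fold (3.29–7.27) above them in Advanced PLNs and 4.98-fold (1.78–19.2) in Early PLNs. Other CD4 T cells were at 2.91 CPM Advanced and 0 Early, the Early group being 9 cells. Gbp3 in all T cells was at 12.9 CPM in the Advanced library and 23.0 CPM in the Early library (ratio 0.56, 0.407–0.783). Treg were 150 of 1079 Advanced T cells and 58 of 154 Early T cells, and with the subset mix made equal the ratio was 0.91. B cells were at 14.2 CPM Advanced and 13.1 CPM Early, level with T cells in the Advanced library (ratio of T cells to B cells 0.91, 0.764–1.08) and below them in the Early library (1.76, 1.30–2.34). Among B cells, the B1-like subset was at 26.7 CPM Advanced and 22.2 CPM Early. Monocytes (5.56 and 10.4 CPM) and dendritic cells (3.3 and 8.12 CPM) were lowest of the 4 main classes in both. Plasmacytoid dendritic cells were at 3.7 CPM Advanced (2 UMIs) and 25.5 CPM Early (10 UMIs).

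Gbp4, on chromosome 5, was the GTPase past the size rule upward in T cells. T cells were at 43.6 CPM (40.0–47.3; 557 UMIs) in Advanced PLNs and 27.5 CPM (21.1–35.4; 61 UMIs) in Early PLNs, a ratio of 1.58 (1.21–2.10). Without the 5% of barcodes with the most UMIs this ratio was 1.05. Treg were at 57.7 CPM Advanced and 22.8 CPM Early, a ratio of 2.53 (1.52–4.46). In B cells it stood at 21.3 CPM Advanced and 16.1 CPM Early (1.32, 1.21–1.44), with the CD23+ CD21-low subset at 22.4 CPM and 14.0 CPM (1.61, 1.32–1.96). T cells led the 4 main classes in both libraries, in the Early library with an interval that overlapped that of dendritic cells, and Early plasmacytoid dendritic cells (33.2 CPM) and precursors (31.2 CPM) were above them. Dendritic cells (20.7 and 19.9 CPM) did not differ from B cells beyond counting error. In the Advanced library 21 of the 44 dendritic UMIs came from 1 mature dendritic cell. Monocytes were lowest, at 6.41 CPM Advanced and 6.48 CPM Early.

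Gbp5, which in mouse macrophages promotes assembly of the NLRP3 inflammasome, had another order, with mature dendritic cells on top. Dendritic cells were at 25.4 CPM (54 UMIs) in the Advanced library and 22.6 CPM (25 UMIs) in the Early library, a ratio of 1.13. Mature dendritic cells held nearly all of it, at 36.6 CPM Advanced (52 UMIs) and 39.3 CPM Early (25 UMIs), against 3.73 CPM and 0 in XCR1+ dendritic cells. B cells came next, at 15.3 CPM Advanced and 15.1 CPM Early (1.01, 0.919–1.11), with a ratio of dendritic to B cells of 1.66 (1.24–2.19) in the Advanced library and 1.49 (0.962–2.22) in the Early library. Monocytes were at 13.7 CPM and 14.3 CPM, within counting error of B cells. T cells were lowest of the 4 main classes, at 11.6 CPM Advanced and 8.13 CPM Early, with precursors below them at 5.04 and 2.97 CPM. T cells had a ratio to B cells of 0.757 (0.631–0.903) in the Advanced library and 0.538 (0.317–0.856) in the Early library. Within T cells, Treg were at 28.8 CPM Advanced and 13.9 CPM Early. Cycling B cells were below CD23+ CD21-high B cells in both, with ratios of 0.446 and 0.306.

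Gbp6, whose counts cannot be separated with certainty from Gbp10, was highest in T cells and lymphoid precursors. In T cells it stood at 12.0 CPM Advanced (154 UMIs) and 19.0 CPM Early (42 UMIs), a ratio of 0.635 (0.449–0.916). With TMM scaling it was 0.761 (0.538–1.10). Precursors were at 13.7 CPM and 18.6 CPM. B cells were at 1.42 CPM Advanced and 0.514 CPM Early, monocytes at 0 and 0.648 CPM, and dendritic cells at 0.471 CPM and 0. Monocytes and dendritic cells held at most 1 Gbp6 UMI in each library, so their order was not detectable at this depth.

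Gbp7, which takes part in the killing of intracellular bacteria in mouse macrophages, was highest in T cells. The T cell level was 49.6 CPM (634 UMIs) in Advanced PLNs and 54.6 CPM (121 UMIs) in Early PLNs, a ratio of 0.908 (0.746–1.11). Treg led at 98.4 CPM Advanced and 86.0 CPM Early, and stood 2.47-fold (1.98–3.09) above Ccl5-low CD8 T cells in the Advanced library and 1.98-fold (1.18–3.49) in the Early library. B cells were at 14.6 CPM Advanced and 11.9 CPM Early (1.22, 1.10–1.36), and among them the CD23- CD21-low subset was at 24.6 CPM and 13.9 CPM (1.77, 1.25–2.53). Monocytes were at 10.3 CPM (24 UMIs) in the Advanced library and 18.8 CPM (29 UMIs) in the Early library, a ratio of 0.546 (0.304–0.971). It was 0.583 (0.322–1.05) with a gate minimum of 5 UMIs, 0.758 (0.392–1.48) without the top cell, and 1.51 (0.586–4.6) without the 5% of barcodes with the most UMIs, so no direction can be given. Of the Early monocyte UMIs 10 came from 1 cell, and without it Early monocytes were at 12.5 CPM. Dendritic cells were lowest, at 4.71 CPM and 3.61 CPM. Precursors were at 26.6 CPM Advanced and 10.4 CPM Early (2.56, 1.48–4.78).

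Igtp, also named Irgm3, is one of the regulatory GTPases that keep the effector GTPases off the cell's own membranes. T cells were at 37.6 CPM Advanced (481 UMIs) and 32.1 CPM Early (71 UMIs), a ratio of 1.17 (0.913–1.53), and T cells stood 3.72-fold (3.28–4.22) above B cells in the Advanced library and 3.88-fold (2.98–4.98) in the Early library. In B cells it stood at 10.1 CPM Advanced and 8.27 CPM Early. Treg were at 45.1 CPM Advanced and 44.3 CPM Early, with a ratio to Ccl5-low CD8 T cells of 1.05 (0.788–1.38) in the Advanced library and 1.93 (0.938–4.38) in the Early library, both within counting error. Monocytes were at 8.12 CPM and 11.7 CPM, within counting error of B cells. Dendritic cells were at 8.48 CPM Advanced (18 UMIs) and 0.903 CPM Early (1 UMI).

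Irgm1, the other regulatory GTPase, without which mouse lymphocytes survive poorly during infection, was spread evenly over the classes. The B cell level was 26.2 CPM (1400 UMIs) in the Advanced library and 23.6 CPM (1380 UMIs) in the Early library, a ratio of 1.11 (1.03–1.19). In T cells it stood at 25.3 CPM Advanced (324 UMIs) and 17.2 CPM Early (38 UMIs), a ratio of 1.48 (1.05–2.13). Monocytes were at 20.5 CPM and 26.6 CPM, and dendritic cells at 26.4 CPM and 15.3 CPM. The intervals of the 4 classes overlapped in each library. B1-like B cells were at 27.1 CPM Advanced and 10.7 CPM Early (2.53, 1.42–4.85), and cycling B cells at 11.5 CPM and 24.0 CPM (0.48). In cycling B cells 10 of the 48 Early Irgm1 UMIs lay in 1 cell. Among dendritic cells the XCR1+ subset was at 46.7 CPM Advanced and 26.7 CPM Early, against 16.9 CPM and 11 CPM in mature cells. This order was opposite to that of Gbp2 and Gbp5, but it leaned on single cells. In the XCR1+ subset 14 of the 25 Advanced UMIs lay in 1 cell, and 7 of the 8 Early UMIs in 1 cell. The ratio of mature to XCR1+ cells was 0.362 (0.198–0.66) in the Advanced library and 0.412 (0.127–1.30) in the Early library.

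Iigp1, also named Irga6, is an effector GTPase that coats parasite vacuoles. It lies at chr18:60376027-60392634 on the plus strand, and it stood further above B cells in T cells than any other GTPase. The T cell level was 28.9 CPM (369 UMIs) in Advanced PLNs and 20.8 CPM (46 UMIs) in Early PLNs, a ratio of 1.39 (1.02–1.93) that was 0.885 (0.635–1.27) without the 5% of barcodes with the most UMIs. The ratio of T cells to B cells was 23.1 (17.7–30.4) Advanced and 121 (60.4–270) Early. Treg were at 67.1 CPM Advanced and 43.0 CPM Early (1.56, 1.05–2.37). Ccl5-low CD8 T cells were at 30.8 CPM Advanced (134 UMIs) and 6.86 CPM Early (3 UMIs), while NK-receptor T cells had 1 UMI in the Advanced library and 0 in the Early library. B cells were at 1.25 CPM Advanced and 0.171 CPM Early, 4.34% and 0.824% of the T cell level. Trbc2, Trac, Lef1, Il7r and Ms4a4b, genes used here as T cell genes, had 2.6% to 3.90% of their T cell level in Advanced B cells and 0.27% to 1.67% in Early B cells. The Iigp1 share lay above this range in Advanced B cells and within it in Early B cells. Il7r, which gave the highest Advanced share, was also at 52.8 CPM in Advanced dendritic cells, and Ms4a4b, which gave the highest Early share, at 76.5 CPM in Early monocytes. Advanced B1-like cells were at 6.59 CPM of Iigp1, 7.97-fold (4.05–15.4) above CD23+ CD21-high cells, with 8 of their 18 UMIs in 1 cell. The part of free RNA in the B cell values was not tested. Dendritic cells were at 1.41 CPM Advanced (3 UMIs) and 32.5 CPM Early (36 UMIs), but 35 of the 36 came from 1 XCR1+ cell, and without it Early dendritic cells were at 0.925 CPM.

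The highest of these T cell gene shares was also taken off the B cell levels. B cells then kept a GTPase sum of 99.3 CPM in the Advanced library and 88.9 CPM in the Early library, a ratio of 1.12. The ratios after this step were 1.25 for Gbp4, 1.15 for Gbp7, 1.12 for Igtp, 1.08 for Gbp3 and Irgm1, 0.992 for Gbp5 and 0.951 for Gbp2. Gbp6 kept 0.952 CPM Advanced and 0.197 CPM Early (4.84), and Iigp1 kept 0.123 CPM and -0.176 CPM, so that it had no ratio. Gbp2 was therefore above 1 before the step and below 1 after it.

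Treg, the Foxp3+ T cells, led the T subsets in the pooled sum in both libraries. They were at 457 CPM (425–492; 730 UMIs) in Advanced PLNs and 324 CPM (285–366; 256 UMIs) in Early PLNs, a ratio of 1.41 (1.22–1.64). Advanced Treg stood 2.01-fold (1.73–2.33) above other CD4 T cells, 1.90-fold (1.73–2.10) above Ccl5-low CD8 T cells and 1.70-fold (1.43–2.03) above activated CD4 T cells. Early Treg stood 2.24-fold (1.23–4.55), 1.75-fold (1.36–2.27) and 1.87-fold (1.44–2.45) above the same subsets. This lead was not found in cells of 20000 UMIs or more, which held 37.2% of Advanced and 49% of Early Treg UMIs. There Treg were at 123 CPM (96.3–154) Advanced and 137 CPM (103–179) Early. Activated CD4 T cells were at 178 and 80.9 CPM, and Ccl5-low CD8 T cells at 110 and 177 CPM. In cells of fewer than 10000 and of 10000 to 20000 UMIs, Treg stood above both in each library. In the Early library their intervals overlapped those of activated CD4 T cells in both bins. They also overlapped those of Ccl5-low CD8 T cells in the bin of 10000 to 20000 UMIs. A single Advanced Treg of 10170 UMIs held 81 GTPase UMIs, 38 of them Gbp2, 14 Gbp4 and 9 Gbp6. Without the cell with the most GTPase UMIs, Treg were at 409 CPM Advanced and 303 CPM Early (1.35).

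With all cells of a subset pooled, the T subsets read higher in the Advanced library, with the intervals of 4 leaving out 1; this did not hold in every bin of depth, as given with the depth of T cells. Besides Treg, these were activated CD4 T cells (269 CPM Advanced, 173 CPM Early; 1.55, 1.17–2.07), Ccl5-low CD8 T cells (240 and 185 CPM; 1.30, 1.03–1.65) and T cells that met neither the CD4 nor the CD8 gate (230 and 127 CPM; 1.82, 1.17–2.97). That remainder can include cells with counts of both CD4 and CD8 genes. Other CD4 T cells (228 and 144 CPM), Ccl5+ CD8 T cells (176 and 127 CPM), NK-receptor T cells (171 and 129 CPM) and Trdc+ T cells (222 and 194 CPM) had intervals that held 1. The Early side of these last 4 subsets rested on 9, 5, 6 and 8 cells. Without the 5% of barcodes with the most UMIs the Treg ratio was 1.19 and the activated CD4 ratio 0.904. With the subset mix made equal, the T cell ratio was 1.41 in place of 1.11.

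The T cell comparison moved with the depth of the cells. T cells of fewer than 10000 UMIs were at 340 CPM (320–361; 453 cells) Advanced and 391 CPM (337–451; 73 cells) Early. Those of 10000 to 20000 UMIs were at 233 CPM (222–244; 567 cells) and 248 CPM (213–288; 53 cells). Those of 20000 UMIs or more were at 169 CPM (152–188; 59 cells) and 131 CPM (110–155; 28 cells). In both libraries the sum was lower in deeper cells, and only in the deepest bin was the Advanced value above the Early value. The deepest bin held 15.8% of Advanced and 47.1% of Early T cell UMIs. Without the 5% of barcodes with the most UMIs, which left out 47 of 1079 Advanced and 34 of 154 Early T cells, the T cell ratio was 0.826; with each cell weighted equally it was 0.943. No direction between stages can therefore be given for T cells as a class. Within the same 3 bins, Treg were at 607, 752 and 123 CPM Advanced and at 602, 377 and 137 CPM Early, so the Advanced value was higher beyond counting error in the middle bin alone. In that bin 1 Advanced cell held 81 of 253 GTPase UMIs and 1 Early cell held 20 of 67. The levels of this bin without these cells were not computed. Activated CD4 T cells were at 411, 165 and 178 CPM Advanced and at 459, 260 and 80.9 CPM Early. The values were lower in Advanced cells in the first 2 bins and higher in the deepest. The intervals of the libraries overlapped in each bin, only barely in the deepest (123–248 Advanced, 50.1–124 Early). These bins hold 5 to 35 Early cells.

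**Figure D3:**
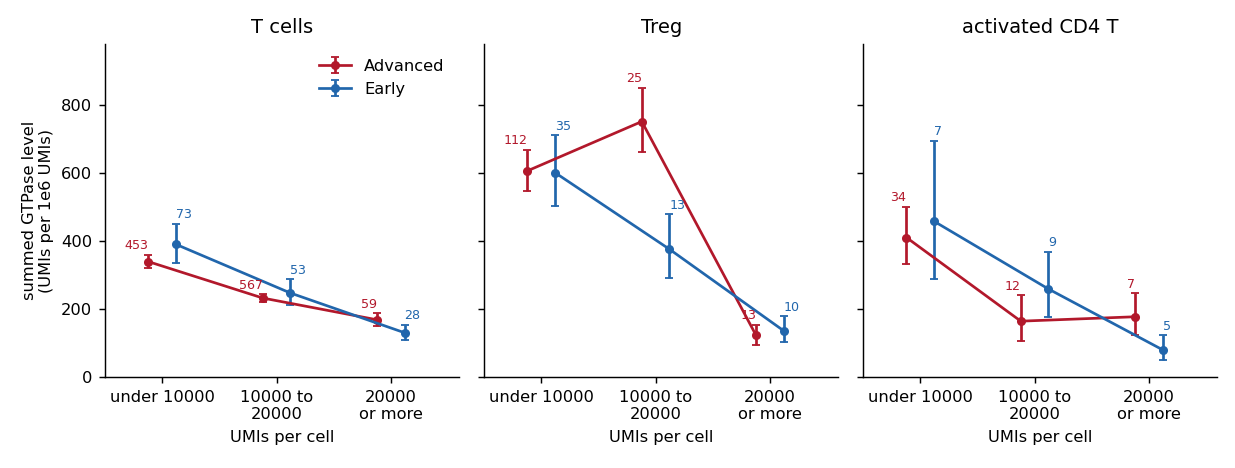
Summed GTPase level (CPM) of T cells in 3 bins of UMIs per cell, Advanced left of Early in each bin; points are pooled levels, lines are exact 95% Poisson intervals, and the numbers beside the points are cells. Levels were 340 and 391 CPM in the shallowest bin and 169 and 131 CPM in the deepest.

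Among B cells the subsets lay closer together than the T subsets. The 2 largest subsets, CD23+ CD21-high and CD23+ CD21-low cells, were at 109 and 106 CPM in the Advanced library and at 93.5 and 83.5 CPM in the Early library. The highest Advanced subset was B1-like cells at 136 CPM, with 94.9 CPM in Early PLNs (1.43, 1.16–1.77). CD23- CD21-low cells were at 123 CPM Advanced and 89.4 CPM Early (1.38, 1.19–1.59). CD21-high CD23- cells were at 111 CPM and 108 CPM (1.03, 0.929–1.14), the only B subset here whose interval held 1. Cycling B cells were lowest, at 57.5 CPM Advanced and 74.4 CPM Early (0.773, 0.609–0.98). Of the 149 Early GTPase UMIs of cycling B cells, 23 lay in 1 cell. Their ratio to CD23+ CD21-high cells was 0.525 (0.44–0.623) in the Advanced library and 0.796 (0.67–0.938) in the Early library.

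A small set of B cells with high type I interferon genes carried more of the GTPases, and this held in both libraries. B cells of 5000 to 10000 UMIs were placed by their UMIs of 17 type I interferon response genes (Isg15, Ifit1, Irf7 and others, none of them a member). Cells with 6 or more of these UMIs numbered 78 Advanced and 59 Early, and those with 0 to 2 numbered 4027 and 5876. Irgm1 was 5.75-fold (4.46–7.32) higher in the high set in the Advanced library and 6.78-fold (5.10–8.85) higher in the Early library. Igtp was 3.54-fold (2.06–5.70) and 6.28-fold (3.73–9.98) higher. Gbp7 (3.22-fold and 2.42-fold) and Gbp4 (2.59-fold and 2.47-fold) had intervals above 1 in both libraries. Gbp2 did not, at 1.56-fold (0.317–4.70) and 0.682-fold (0.0171–3.86). Gbp5 left out 1 in the Advanced library alone (2.0, 1.16–3.24, against 1.17, 0.47–2.44), and Gbp3 in the Early library alone (1.40, 0.666–2.6, against 2.6, 1.33–4.59). For the sum the fold was 3.25 (2.77–3.78) in the Advanced library and 3.61 (2.99–4.33) in the Early library. The set is a range on a count and not a cell type, and 41 Advanced and 37 Early cells had 5 or 6 list UMIs.

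Irgm1 was higher in each further bin of the count. From 0 to 2, 3 to 5, 6 to 10, and 11 or more list UMIs it was at 23.1, 34.5, 96.3 and 186 CPM in Advanced B cells and at 21.3, 36.2, 97.8 and 217 CPM in Early B cells. At a given bin the libraries thus lay close together. The highest bin held 33 Advanced and 23 Early cells.

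**Figure D4:**
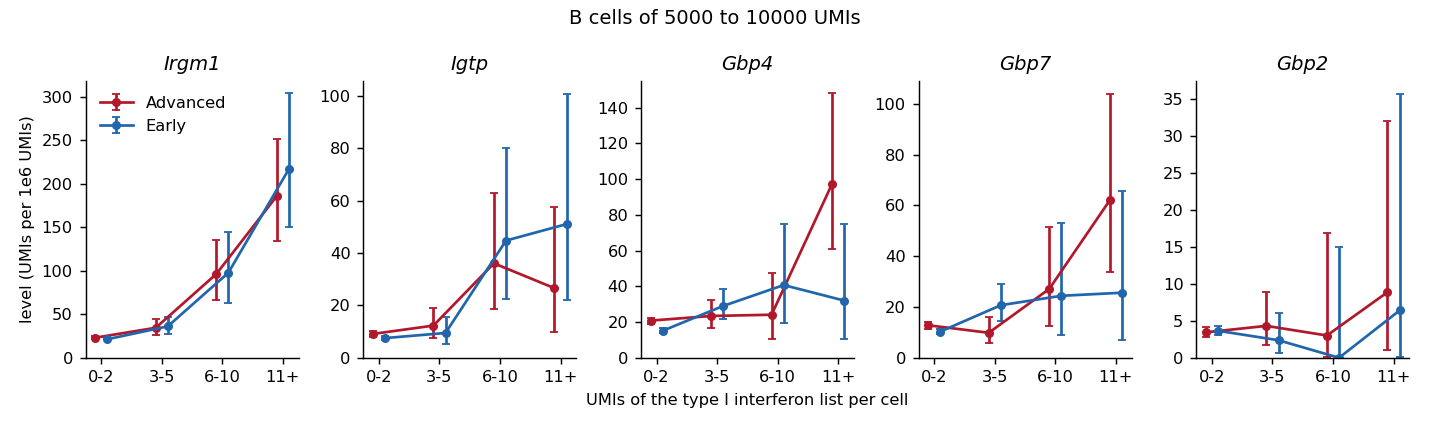
Level of Irgm1, Igtp, Gbp4, Gbp7 and Gbp2 (CPM, a scale for each gene) in B cells of 5000 to 10000 UMIs by the number of type I interferon list UMIs per cell, Advanced left of Early; points are pooled levels and lines are exact 95% Poisson intervals. Irgm1 stood at 186 and 217 CPM in cells with 11 or more list UMIs, against 23.1 and 21.3 CPM in cells with 0 to 2.

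In the myeloid classes of the Early library, single cells held a sizeable part of the GTPase sum (32 of 171 UMIs in monocytes, 49 of 136 in dendritic cells). An Early non-classical monocyte of 17685 UMIs held 32 GTPase UMIs (10 Gbp7, 7 Gbp2, 6 Gbp5, 5 Irgm1 and 4 Gbp3). The same cell held 210 UMIs of the type I list, where the class median was 1, and 192 UMIs of Cxcl10. An Early XCR1+ dendritic cell of 26208 UMIs held 49 GTPase UMIs (35 Iigp1, 7 Gbp4 and 7 Irgm1), with 149 type I list UMIs against a class median of 3, and 87 UMIs of Cxcl9. The top Advanced cells held fewer type I list UMIs. A non-classical monocyte with 21 GTPase UMIs held 12 of them, and a mature dendritic cell with 28 GTPase UMIs held 4. The Advanced Treg with 81 GTPase UMIs held 4 type I list UMIs, fewer than 164 other T cells.

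Non-classical monocytes were at 87.2 CPM Advanced and 112 CPM Early for the sum (0.776, 0.618–0.975), and Ccr2+ monocytes at 62.7 CPM and 116 CPM (0.542, 0.289–1.01). Mature dendritic cells were at 127 CPM in both libraries (1.00, 0.765–1.32). XCR1+ dendritic cells were at 70.9 CPM Advanced (38 UMIs) and 170 CPM Early (51 UMIs), a ratio of 0.417 (0.266–0.647) that was 4.74 without the cell with the most GTPase UMIs in each library. No direction can be given for this subset.

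Ifng was found in few cells, and T cells held most of its UMIs. In all, 225 UMIs lay in 128 Advanced cells and 82 UMIs in 32 Early cells, which is 15.6 and 3.89 cells per 1000 cells of the library. T cells held 133 UMIs (59.1%) in 64 cells in the Advanced library and 49 UMIs (59.8%) in 12 cells in the Early library. T cells were thus 50% of Advanced and 37.5% of Early cells with Ifng, and B cells 30.5% and 50%. The share of T cells with an Ifng UMI was 5.93% (4.60–7.51) Advanced and 7.79% (4.09–13.2) Early, and after thinning to 3000 UMIs 2.54% (1.68–3.68) and 3.36% (1.10–7.66). The share of B cells with an Ifng UMI was 0.647% and 0.21%, at median depths of 7429 and 6573 UMIs against 10871 and 10482 UMIs in T cells. Per UMI, T cells were at 10.4 CPM (8.71–12.3) Advanced and 22.1 CPM (16.4–29.3) Early, a ratio of 0.47 (0.336–0.666). Without the cell with the most Ifng in each library the ratio was 0.508, and with the subset mix made equal it was 0.806. Advanced PLNs thus held more T cells with Ifng per cell of the library (7.82 against 1.46 per 1000) while the level per T cell UMI was lower. By depth, T cells of fewer than 10000 UMIs were at 15.9 CPM Advanced and 10.5 CPM Early, those of 10000 to 20000 at 9.84 and 26.0 CPM, and those of 20000 or more at 3.96 and 24.9 CPM, so the lower Advanced level was found in the deeper cells.

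Activated CD4 T cells had the highest Ifng level of the T subsets. They were at 80.0 CPM (58.8–106; 47 UMIs in 14 of 53 cells, 26.4%) in the Advanced library and 84.3 CPM (59.1–117; 36 UMIs in 5 of 21 cells, 23.8%) in the Early library, a ratio of 0.949 (0.602–1.51). They held 20.9% of all Advanced and 43.9% of all Early Ifng UMIs. The highest cell in each library belonged to this subset, with 18 UMIs Advanced and 10 UMIs Early. Their level was 21.3-fold (9.08–60.9) above Treg in the Advanced library and 33.3-fold (8.58–286) in the Early library. Treg, highest in the GTPase sum, were at 3.76 CPM and 2.53 CPM of Ifng.

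**Figure D5:**
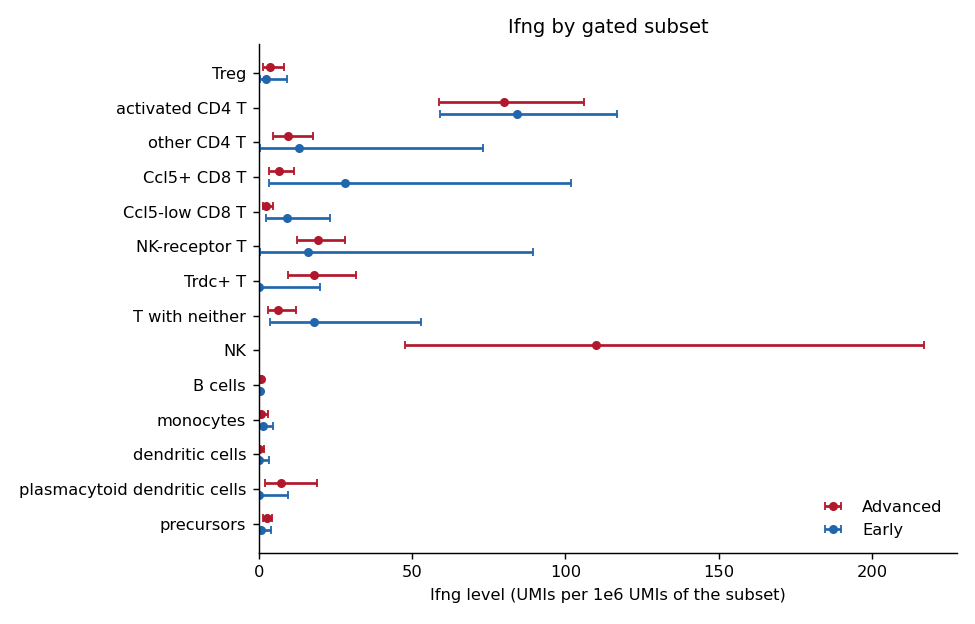
Ifng level (CPM) in each T subset, in NK cells and in B cells, monocytes, dendritic cells, plasmacytoid dendritic cells and precursors as classes. The Advanced library is above the Early library in each pair. Points are pooled levels and lines are exact 95% Poisson intervals. Activated CD4 T cells stood at 80.0 and 84.3 CPM, against 19.3 and 16.1 CPM in NK-receptor T cells.

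The other T subsets were lower. NK-receptor T cells were at 19.3 CPM Advanced (26 UMIs in 16 of 95 cells) and 16.1 CPM Early (1 UMI), and Trdc+ T cells at 18.2 CPM Advanced (12 UMIs) and 0 Early. Ccl5+ CD8 T cells were at 6.58 CPM and 28.2 CPM, the Early value resting on 2 UMIs of 1 cell, and Ccl5-low CD8 T cells were at 2.53 CPM and 9.15 CPM, the Early value again from 1 cell. In the Advanced library NK cells held 8 UMIs in 2 of 6 cells (110 CPM, 47.6–217), 7 of them in 1 cell; the Early library held no gated NK cell. Dendritic cells held 0 Ifng UMIs, which allows up to 1.41 CPM Advanced and 2.71 CPM Early (3 counts). Monocytes held 2 UMIs in each library.

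In B cells Ifng was at 0.916 CPM Advanced (49 UMIs in 39 cells) and 0.411 CPM Early (24 UMIs in 16 cells), a ratio of 2.23. These were 8.8% and 1.86% of the T cell level, against 2.6% to 3.90% and 0.27% to 1.67% for the T cell genes. In the Early library 8 of the 24 UMIs came from 1 cycling B cell, and without it Early B cells were at 0.274 CPM.

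T cells with an Ifng UMI had a GTPase sum of 302 CPM (264–343) in the Advanced library, against 246 CPM (237–255) in T cells without one. In the Early library the order was opposite, at 107 CPM (77.1–146) against 248 CPM (226–272). Median depths were 12121 against 10836 UMIs in Advanced cells and 14940 against 10052 UMIs in Early cells, and the Early group with Ifng was 12 cells. The part of depth in these values was not tested.

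The wider pathway was read from 4 lists, of which 56 of 58 genes were in the files. By the same rule, of all measured genes 1.12% were higher and 0.0575% lower in B cells, and 5.14% and 22.5% in T cells. These shares were 5.62% and 2.67% in monocytes, and 3.83% and 6.06% in dendritic cells. The counts from the lists below are to be read beside these shares. Among further family members, T cells had 5 measured and 3 past the size rule upward. These were Gbp8 (20.3 CPM Advanced, 11.3 CPM Early; 1.80), Tgtp1 (12.1 and 4.52 CPM; 2.68) and Tgtp2 (18.4 and 7.68 CPM; 2.39); Tgtp1 and Tgtp2 share most of their 3′ ends and cannot be counted apart. Ifi47, another immunity-related GTPase, was at 100 CPM and 86.7 CPM in T cells (1.16) and at 32.9 CPM and 29.7 CPM in B cells (1.11). Dendritic cells had 3 measured and 1 higher, Gbp9 (33.0 and 19.0 CPM; 1.74).

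Among 12 measured genes of interferon gamma signalling in B cells, 0 passed in either direction. Irf1 was at 31.9 CPM Advanced and 27.2 CPM Early (1.17), and the receptor chain Ifngr1 at 71.7 and 71.3 CPM. In T cells 13 were measured, 0 were higher and 1 was lower, the chemokine Cxcl10 (9.54 and 55.1 CPM; 0.173), with 67 of its 122 Early UMIs in 1 cell. In monocytes 15 were measured and 2 were lower, among them Cxcl10 (3.42 and 126 CPM), with 192 of its 195 Early UMIs in the monocyte described above. In dendritic cells 15 were measured, 2 higher (Cxcl9 and Nlrc5) and 2 lower (Socs3 and Cxcl10), and 368 of the 484 Advanced Cxcl9 UMIs were in 1 cell.

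Of the type I interferon response genes, 0 of 5 measured passed in B cells, all with ratios above 1. In T cells 7 were measured, 2 higher (Isg15 at 27.0 and 15.4 CPM, 1.76; Irf7 at 20.8 and 12.2 CPM, 1.71) and 1 lower (Isg20 at 17.3 and 28.5 CPM, 0.608). In monocytes 14 were measured, 0 higher and 7 lower (Isg15, Ifit1, Ifit2, Ifit3, Oasl2, Rsad2 and Usp18), against 2.67% lower of all measured genes. The single monocyte described above held 33 of 44 Early Ifit1 UMIs, 28 of 49 of Isg15, 15 of 18 of Ifit2 and 13 of 27 of Rsad2. For Ifit3, 28 of 40 Early UMIs were in 1 cell. In dendritic cells 8 were measured, 1 higher (Isg15) and 3 lower (Ifit2, Rsad2 and Bst2); all 35 Early Ifit2 UMIs were in 1 cell.

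Of the genes that drive interferon gamma production, T cells had 4 measured and 0 past the rule, with the interleukin 18 receptor chain Il18r1 at 73.1 CPM Advanced and 61.0 CPM Early and Stat4, which acts below the interleukin 12 receptor, at 87.3 and 69.5 CPM. B cells had 2 measured and 0 past the rule. Monocytes had 6 measured and 2 higher (Il18r1 at 20.9 and 7.78 CPM, and Eomes at 14.5 and 3.89 CPM). T cells were at 32.5 and 39.3 CPM of Eomes. A barcode that passed the myeloid gate was not called an NK cell. The part of NK or T cells and their RNA in these monocyte values was not tested. Dendritic cells had 5 measured and 2 higher: Stat4 (17.9 and 8.12 CPM) and Il12b, the p40 chain of interleukin 12 (52.3 and 4.51 CPM), with 71 of its 111 Advanced UMIs in 1 cell.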

How the data were processed

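The authors deposited 1 matrix of raw UMI counts per library (10x Genomics 3′ chemistry); the file headers give Cell Ranger 6.0.1. The build was mm10, per the submitters' processing notes, which also list Seurat 4.0.3 and, unlike the headers, Cell Ranger in its versions 3.1 and 3.1.0. The deposited counts were used unscaled. The members and gene lists were chosen with earlier results of these data known. Genes were matched to GENCODE M21 positions by Ensembl identifier.

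Barcodes with fewer than 200 genes were left out (18 Advanced, 21 Early; totals 83148059 and 67610110 UMIs). Cells were gated on at least 3 UMIs of B cell markers (Cd79a, Cd79b and Ms4a1 among them) or of Cd3d, Cd3e and Cd3g (T cells), or of myeloid markers, with other gates at 3 UMIs or fewer or well below. Plasma cells (Jchain at 20 or more, Xbp1 at 3 or more) and precursors (Vpreb1 with Igll1, or Dntt with Rag1) were set aside. Subsets were gated on Foxp3 (Treg), Icos, Tnfrsf4 and Pdcd1 (activated CD4), Trdc, NK receptors, Ccl5, Fcer2a (CD23), Cr2 (CD21), Bhlhe41 (B1-like), Mki67 and Top2a (cycling), Fscn1 and Ccl22 (mature dendritic cells), Xcr1 and Clec9a (XCR1+), Ace and Adgre4 (non-classical) and Ly6c2 and Ccr2 (Ccr2+). No doublet caller was run; the 5% of barcodes with the most UMIs were left out as an alternative. Classes were rebuilt from markers and may differ from the study's.

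Levels were UMIs of a gene per 1e+06 UMIs of the class (CPM), with exact Poisson 95% intervals; ratios had exact conditional intervals and shares had Clopper-Pearson intervals. Genes whose counts were too low (under 10 CPM in both libraries) were not measured in that class. Shares were also given after thinning each cell to 3000 UMIs. In each list, genes named were those past the size rule and those with the most UMIs; some list and marker genes are not reported here. Alternatives were equal weight per cell, other totals, TMM factors (edgeR 4.0.16, R 4.3.3), a gate minimum of 5 UMIs, no CPM minimum, a limit of 10% mitochondrial UMIs, and, chosen after seeing the data, leaving out the top cell, making the subset mix equal and leaving out shared barcodes. Python 3.11.15 was used with numpy 2.4.6, scipy 1.17.1, pandas 2.3.3 and matplotlib 3.10.9.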

Additional observations from a re-analysis of the deposited data

Results flagged for a closer look

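The Advanced to Early ratio of some members pointed one way in one class and the other way in another, with counting intervals on both sides that left out 1. With 1 library per stage these differences between classes were not tested. The GTPase sum had a ratio of 1.17 in B cells and 1.11 in T cells, against 0.748 in monocytes; the T cell ratio was 0.943 and 0.826 under other weightings, and the monocyte ratio was 0.822 (0.653–1.03) without the top cell. Gbp6 had a ratio of 2.76 in B cells and 0.635 in T cells, and its B cell value rests on 76 Advanced and 30 Early UMIs. Gbp7 had a ratio of 1.22 in B cells and 0.546 in monocytes, and the monocyte ratio was 0.758 without the top cell and 1.51 without the 5% of barcodes with the most UMIs. For Iigp1 the ratio was 7.31 in B cells and 1.39 in T cells, against 0.0435 in dendritic cells, where 35 of 36 Early UMIs lay in 1 cell and the ratio without the top cells was 0.521 (0.00663–40.9). The B cell ratio rests on 67 Advanced and 10 Early UMIs and could not be given after the T cell gene share was taken off, and the T cell ratio was 0.885 without the 5% of barcodes with the most UMIs. Ifng had a ratio of 2.23 in B cells and 0.47 in T cells.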

How the results depend on the processing

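Of the 69 alternatives to the main comparisons, 55 left the value in place, 12 moved it and 2 turned its direction; for single genes and subsets the counts were 344, 28 and 4. A turn was counted only where the main interval left out 1. The dendritic cell sum, whose interval held 1, was therefore not counted as turned when it crossed 1. The GTPase sum in T cells, 1.11 as reported, was 1.31 with totals that left out immunoglobulin, ribosomal protein and mitochondrial genes, 1.33 with TMM factors, 1.41 with the subset mix made equal, 0.943 with equal weight per cell and 0.826 without the 5% of barcodes with the most UMIs. The sum in B cells was 1.09 with TMM factors. The sum in dendritic cells, 0.909 as reported, was 0.568 without the deepest 5% of barcodes and 1.25 without the top cell. The Ifng ratio in T cells was 0.761 with equal weight per cell and 0.806 with the subset mix made equal. The share of T cells with Ifng was 2.54% (Advanced) and 3.36% (Early) after thinning, and 2.59% (Advanced) when 2 UMIs were asked for. Among single results, those that turned were Gbp7 in monocytes (1.51) and Iigp1 in T cells (0.885) and the sum in activated CD4 T cells (0.904), all without the deepest 5% of barcodes, and the sum in XCR1+ dendritic cells without the top cell (4.74). The causes were not tested.

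With no CPM minimum, the B cell genes past 1.5-fold numbered 1490 in place of 82 (1369 higher and 121 lower, against 78 and 4) and higher T cell genes 580 in place of 380. With TMM factors T cells had 873 higher and 777 lower genes in place of 380 and 1664, so that 52.9% of calls were higher in place of 18.6%; the calls then were Gbp2, Gbp4, Gbp5, Irgm1 and Iigp1 higher and 0 GTPases lower, and the median log2 ratio of all genes was 0.0198 in place of -0.254. In B cells TMM gave 49 higher and 8 lower genes, and the median log2 ratio was -0.0407 in place of 0.0623. In dendritic cells TMM factors made Irgm1 higher, and 49.7% of calls were higher in place of 38.7%. Gbp7 in monocytes and Gbp6 in T cells did not pass without the top cell, nor did Gbp7 in monocytes with a gate minimum of 5 UMIs. Several Early T subsets hold under 10 cells, which limits what can be read from them. No paired analysis was possible because each stage is 1 library and the labels give no replicate numbers.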

Other observations

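The smaller classes spread widely in the GTPase sum. Plasma cells were at 80.0 CPM (136 UMIs) in the Advanced library and 31.0 CPM (44 UMIs) in the Early library, a ratio of 2.58 (1.82–3.71), with Gbp4 at 32.3 CPM and 4.23 CPM; 21 of the 55 Advanced Gbp4 UMIs lay in 1 cell. Plasmacytoid dendritic cells were at 61.1 CPM (33 UMIs) Advanced and 166 CPM (65 UMIs) Early (0.368, 0.235–0.568), in 32 and 26 cells. Precursors were at 132 CPM and 138 CPM (0.963, 0.82–1.14), above B cells in both libraries (1.22, 1.13–1.31 Advanced; 1.49, 1.28–1.72 Early).

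Over the 30 pairs of subset and library with at least 30 cells, the genes whose log2 levels went most like the mean of the GTPases were Igflr1 (Pearson r 0.938), Cd5 (0.905), Gprin3 (0.898), Icos (0.896), Hacd3 (0.886), Cd6 (0.883), Pigx (0.878) and Ipcef1 (0.875). Of these, 6 were highest in Treg, and Icos was itself used in the gate of activated CD4 T cells. For Ifng they were Tnfsf8 (0.812), Spp1 (0.785), Gm2663 (0.774), Angptl2 (0.769), Smap1 (0.76), Itm2a (0.749), Gm14718 (0.745) and Dennd2d (0.742), 7 of them highest in Advanced activated CD4 T cells. These are descriptions across subsets of 2 libraries, which share library, depth and cells of like kind, and are not independent points.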
